A study of Mus musculus with 58 samples.

Results

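Livers of Muta™Mouse males that had received the highest dose of indeno(123,cd)pyrene (IP) were compared with livers of males that had received the lowest dose. The members were chosen by their labels: the 5 liver arrays titled D3 (50 mg/kg-bw/day, mice 16 to 20) and the 5 liver arrays titled D1 (12.5 mg/kg-bw/day, mice 6 to 10), 10 of the 58 arrays of the series. IP in olive oil was given by gavage for 28 consecutive days and tissue was taken 72 h after the last dose, so that both groups had the same vehicle, the same duration and the same recovery time. Muta™Mouse (strain 40.6) carries a lacZ reporter in every cell for mutation assays. The controls carried the same transgene and were given olive oil alone, and neither they nor the mice given 25 mg/kg-bw/day (D2) enter the contrast. RNA of a random slice of the left lobe was labelled with Cy5 and hybridized beside a Cy3-labelled universal mouse reference RNA, a pool of RNA from 11 cell lines, on Agilent arrays with 55681 different probes. Every value below is a log2 ratio of Cy5 over Cy3, or a difference between 2 such ratios (D3 minus D1), after loess normalization within the array, and a difference of 0.58 on this scale is a fold change of 1.5.

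IP is a polycyclic aromatic hydrocarbon of the benzo(a)pyrene family. Such compounds bind the aryl hydrocarbon receptor (AhR), which turns on Cyp1a1, Cyp1a2 and Cyp1b1, the monooxygenases that oxidize them, and some of the oxidation products bind DNA, which can stabilize p53 and raise Cdkn1a, Mdm2 and other p53 targets. Liver is the main organ of such metabolism and also of cholesterol synthesis, urea formation, glucose output and the secretion of plasma proteins. Cholesterol synthesis is governed by the transcription factor SREBP2, which is released from the endoplasmic reticulum when sterols are scarce and acts on the genes of the whole route together with the CCAAT-binding factor NF-Y. Proliferation in an undisturbed adult liver is low, and the transcripts of replication and mitosis are rare there compared with cultured cells.

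Of the 19 liver arrays, 5 stood apart by their brightness. On these, the Cy5 signal was well above background for 67.2 to 79.2% of probes, against 38.9 to 46.3% on the other 14 arrays. They belonged to D1 mouse 9, D3 mice 16 and 20, and 2 mice of D2. The correlation between arrays over all probes had a median of 0.974 within the 14 arrays, 0.961 within the 5 brighter arrays and 0.915 between the kinds. Each of the 3 liver slides held arrays of both D1 and D3 (mice 6, 7 and 16 on slide 1, mice 8, 18 and 19 on slide 2, mice 9, 10, 17 and 20 on slide 3), so differences could be taken within each slide. The column of the slide followed the dose except for mouse 9 and for 1 mouse of D2, so dose and array column largely cannot be told apart. The 6 hepatocyte markers examined (Alb, Ttr, Apoa1, Cps1, Hnf4a and Tat) were above background in both groups. That separate animals were used follows from the mouse numbers, and 5 mice a group limit the precision.

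Between D3 and D1 no probe was past 1.5-fold at a Benjamini-Hochberg adjusted limma p of 0.05 or below (0 of 55681 probes, 0%), and the smallest adjusted p was 0.999996. At an unadjusted p under 0.05 there were 764 probes with higher ratios at D3 (1.37%) and 880 with lower ratios (1.58%), 1644 in all, against 2784 that a p of 0.05 gives with no effect. Over the 20018 gene names, each taken at its brightest probe, none passed both thresholds (0%), 335 were higher at D3 at an unadjusted p under 0.05 (1.67%), 312 were lower (1.56%), and the median difference was −0.01. The 5 mice of D3 all lay above the 5 of D1 for 49 genes (0.245%) and all below for 31 (0.155%). No gene therefore counts as changed in what follows, and the genes and gene lists are described by their values in the mice and by their counts at the unadjusted p beside these shares. A few probes passed when the arrays were treated differently. Limma array weights gave 3 (Pigt, Mcm6 and 1 probe without a gene name), leaving out D1 mouse 9 gave 1 (Mcm6) and leaving out the 5 brighter arrays gave 1 (Pigt). These treatments are not independent, since each gives less weight to brighter arrays. The array weights were 0.27 for D1 mouse 9 and 0.37 and 0.38 for D3 mice 16 and 20, against 1.16 to 1.88 for the other D1 and D3 arrays.

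The gene with the smallest p was Mcm6, a subunit of the MCM2-7 helicase that opens DNA at replication origins. Its log2 ratio was −6.08, −5.76, −6.34, −4.84 and −5.32 in D1 mice 6 to 10, and −4.25, −4.34, −4.12, −4.54 and −4.65 in D3 mice 16 to 20. All D3 mice lay above all D1 mice, and the nearest D1 value was that of mouse 9, a brighter array. The difference was 1.29 ± 0.23 (SE), a 2.44-fold higher ratio at D3, with a limma adjusted p of 1.00 in the comparison of all probes. It was 1.67, 2.02 and 0.58 within slides 1, 2 and 3 and 1.54 without the brighter arrays. With array weights it was 1.42 (limma adjusted p = 0.0298), and without D1 mouse 9 it was 1.49 (limma adjusted p = 0.0447). The vehicle mean of −5.51 was close to the D1 mean of −5.67, and the D2 mean was −4.97.

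Pigt, a subunit of the transamidase that attaches GPI anchors to proteins, was the third by p among the genes named as higher. Its log2 ratio was −0.99, −1.06, −1.04, −1.07 and −1.0 in D1 mice 6 to 10, and −0.21, 0.26, 0.98, 0.36 and −0.84 in D3 mice 16 to 20. The D1 mice were nearly level (SD 0.04), whereas the D3 mice were spread from just above them to 0.98, the highest value on a liver array, with the brighter arrays 16 and 20 nearest to D1. The difference was 1.14 ± 0.23 (SE), or 2.21-fold. Neither the vehicle mean (−1.04) nor the D2 mean (−1.01) departed from D1. Without the brighter arrays it was 1.56 (limma adjusted p = 0.000596) and with array weights 1.43 (limma adjusted p = 0.0199). No other named probe for Pigt or for Mcm6 was available for comparison.

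Cdc20, the activator of the anaphase-promoting complex, showed the same separation. Its log2 ratio was −4.92, −4.93, −4.69, −4.24 and −4.74 in D1 mice 6 to 10, and −3.64, −3.78, −4.22, −3.98 and −4.10 in D3 mice 16 to 20. The closest pair was again D1 mouse 9 with a D3 mouse, and the difference was 0.76 ± 0.16 (SE), or 1.69-fold. Next to these among the 15 genes named as higher at D3 stood Spc25, a part of the kinetochore's Ndc80 complex (0.62), Tipin, which steadies stalled replication forks (0.46), Cdt1, which loads the MCM helicase (0.46), and Nek6, a mitotic kinase (0.30, with a second probe at 0.35). Of these and Mcm6 and Cdc20, the cell cycle list described further on holds Mcm6, Cdc20 and Cdt1. Spc25 ranged from −3.55 to −2.92 in D1 and from −2.85 to −2.30 in D3, and Cdt1 from −4.11 to −3.64 and from −3.46 to −3.07. The groups did not overlap for these genes except Nek6.

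The other 8 genes named as higher had smaller or less even differences. Gpr146, an orphan receptor of the liver with a part in plasma cholesterol, was higher by 0.49 and ranged from 2.30 to 2.68 in D1 and from 2.81 to 3.23 in D3, but its second probe gave 0.09. Ucp3, a mitochondrial carrier of muscle and brown fat, was higher by 0.85 with a second probe at −0.03. The others were Cd72, a co-receptor of B cells (0.59), Csf2rb, the common beta chain of the IL-3 and GM-CSF receptors (0.43), Mefv, the pyrin inflammasome sensor of granulocytes (0.65), and Pik3r6, a regulatory subunit of PI3K-gamma (0.46). Second probes gave 0.21 for Cd72, −0.07 for Csf2rb and 0.14 for Mefv. Raly, an RNA-binding protein, was higher by 0.44 and Cda, cytidine deaminase, by 0.51. All 15 genes kept their sign within each slide, without the brighter arrays and in all 345 combinations of a gene with an alternative setting, and the groups did not overlap for 10 of the 15, which had been ranked by this same difference.

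Among the 15 genes named as lower at D3, Pde5a, the phosphodiesterase that degrades cGMP, had the largest difference. Its log2 ratio was 2.36, 2.38, 2.45, 1.68 and 0.99 in D1 mice 6 to 10, and −0.33, 1.07, 0.43, 0.80 and 0.15 in D3 mice 16 to 20. Mouse 10 of D1 lay among the D3 mice, and the other 4 lay above all of them. The difference was −1.55 ± 0.41 (SE), a ratio at D3 that was 0.342 of that at D1. The vehicle mean was 2.43 and the D2 mean 1.24. It was −2.70, −1.84 and −0.72 within slides 1, 2 and 3.

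Csad, cysteine sulfinic acid decarboxylase, the enzyme that commits cysteine to taurine and thus serves bile acid conjugation, came next. Its log2 ratio was 1.55, 2.14, 1.18, 2.74 and 1.71 in D1 mice 6 to 10, and 1.02, 0.38, 0.79, 0.37 and 0.78 in D3 mice 16 to 20. The groups did not overlap, the difference was −1.20 ± 0.33 (SE), and D2 (mean 0.85) was closer to D3 than to the vehicle mean of 1.70. Lpin2, a phosphatidate phosphatase of triglyceride synthesis, had a log2 ratio of 1.95, 2.14, 2.58, 1.69 and 1.80 in D1 mice 6 to 10, and of 1.1, 1.25, 1.14, 0.88 and 1.58 in D3 mice 16 to 20. Its groups did not overlap either, with a difference of −0.84 ± 0.20 (SE), and the D2 mean of 1.90 was close to D1.

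The rest of the lower genes differed by less. They were Vapb, an endoplasmic reticulum tether (−0.62), Cadm4, an adhesion molecule (−0.52), Pipox, the peroxisomal sarcosine oxidase (−0.48), Eml2, a microtubule-binding protein (−0.48), Rora, a nuclear receptor of the clock (−0.46), 4930579F01Rik (−0.44), Btg1, an antiproliferative co-regulator (−0.43), Grb7, an adaptor of receptor tyrosine kinases (−0.39), Metrn (−0.36), Slc15a4, a lysosomal histidine carrier (−0.33), Tnfaip8 (−0.33) and Snap29, a SNARE protein (−0.30). Second probes gave smaller differences for Vapb (−0.26), Btg1 (−0.12) and Tnfaip8 (−0.15), one of opposite sign for Snap29 (0.08) and a larger one for Eml2 (−0.84). The transcript 4930579F01Rik was close to background, above it in 4 D1 mice, 3 D3 mice and no vehicle mouse and in the reference channel of 4 of 19 arrays, so that it passed the limit on dim probes through D1, where it was higher. The 15 lower genes likewise kept their sign within each slide and in all 345 combinations with a setting, and 7 of the 15 had groups that did not overlap, 4930579F01Rik among them, in an order set by this same difference. A single gene tested alone on the 10 mice can reach an exact permutation p (two-sided, 252 splits) of 0.00794 at best, which the exact test gave for Mcm6, Pigt, Cdc20, Csad and Lpin2 before any correction for the 20018 genes from which they were picked.

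**Figure D1:**
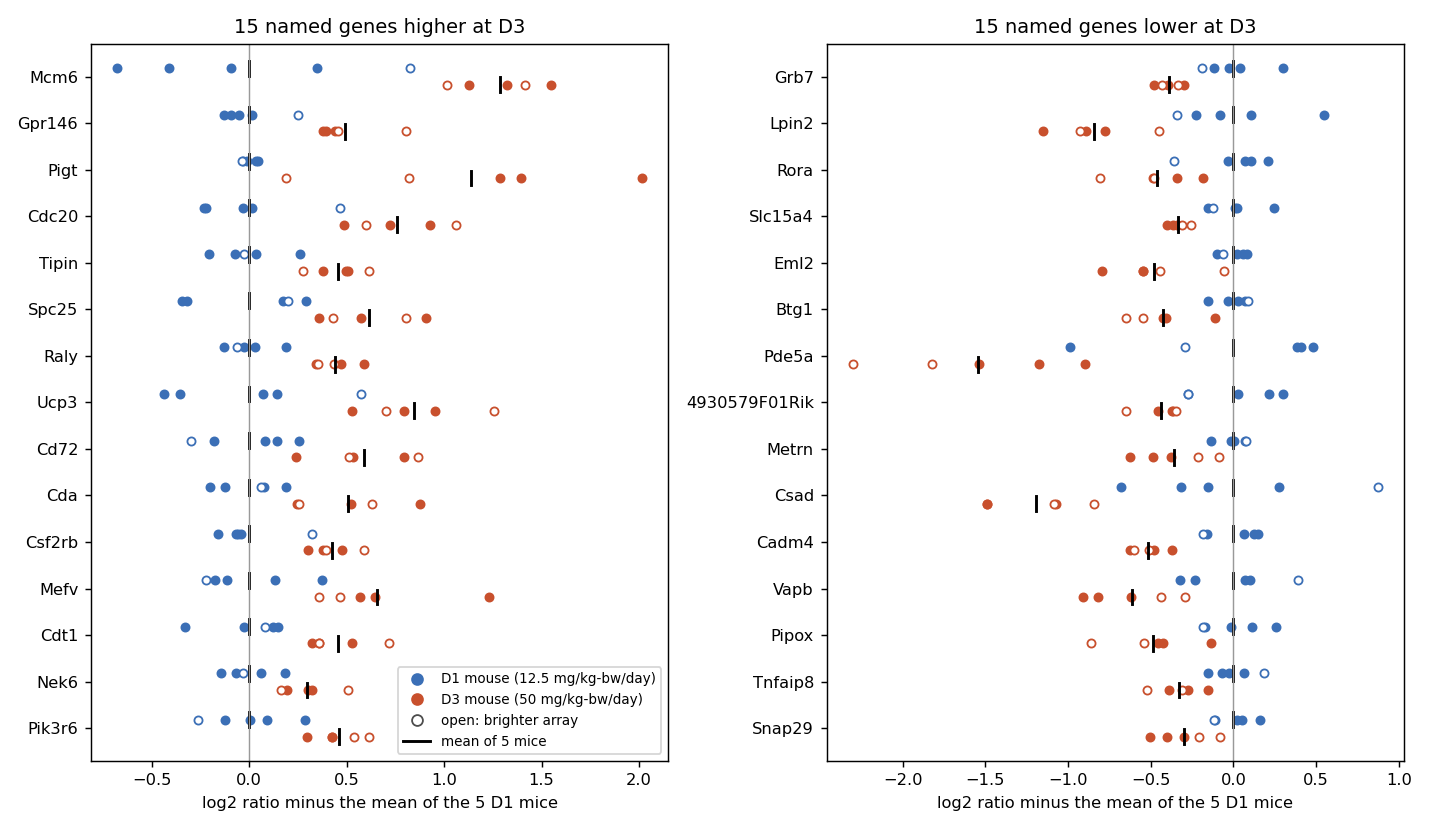
The 15 named genes higher (left) and the 15 lower (right) at D3, in order of p. The x axis is the log2 Cy5/Cy3 ratio of a mouse minus the mean of the 5 D1 mice, points are mice, open points the brighter arrays and vertical bars the group means; D3 mice of Mcm6, Pigt and Cdc20 lie above all D1 mice, and those of Csad and Lpin2 below.

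Of the 37 gene lists that were described, the genes of cholesterol synthesis and its control departed furthest from the shares over all genes. Of 21 genes described, 9 were lower at D3 at an unadjusted p under 0.05, where 1.56% of all genes were, and 0 were higher. The median difference was −0.31, against −0.01 over all genes, and the means of all 21 were lower at D3. None of the 9 passed both thresholds after adjustment. Since the list was described with earlier results of these data known, it has no test of its own.

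The route runs from acetyl-CoA to mevalonate, on to squalene and lanosterol, and then to cholesterol. In the mevalonate part, Mvd, which makes isopentenyl pyrophosphate, had ratios of 0.47, 1.40, 0.69, 1.45 and 0.54 in D1 mice 6 to 10 and of 0.16, 1.00, 0.01, −0.06 and −0.04 in D3 mice 16 to 20, with a difference of −0.70 ± 0.25 (SE). All D3 mice but mouse 17 lay below all D1 mice. Acat2, the cytosolic thiolase at the head of the route, had −0.28, and Hmgcs1, which makes HMG-CoA, had −0.31 with D1 mice so far apart (SD 0.69) that its p was above 0.05.

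In the squalene and sterol part, Lss, lanosterol synthase, had a log2 ratio of 2.57, 2.72, 1.91, 2.05 and 2.48 in D1 mice 6 to 10, and of 2.09, 1.83, 1.70, 1.90 and 1.1 in D3 mice 16 to 20, a difference of −0.63 ± 0.23 (SE). Only D3 mouse 16 lay above the lower D1 mice. Hsd17b7, a 3-ketosteroid reductase of the route, was the member whose groups did not overlap. Its ratio was 2.42, 2.38, 2.31, 2.40 and 2.42 in D1 mice 6 to 10, and 2.07, 2.18, 2.13, 1.99 and 1.93 in D3 mice 16 to 20. The difference of −0.33 ± 0.12 (SE) was small and the spread in each group smaller still (SD 0.04 and 0.10), and a second probe gave −0.44. Fdps (−0.36), Fdft1 (−0.30) and Dhcr7 (−0.50), enzymes of farnesyl pyrophosphate, squalene and the last step to cholesterol, were also among the 9, and D3 mouse 20 was far below the other D3 mice for Dhcr7 (1.59 against 2.71 to 2.94). The second probe of Fdft1 gave −0.00.

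The remaining 2 of the 9 act in sterol sensing and transport. Insig1, which retains SREBP in the endoplasmic reticulum, had a log2 ratio of 3.05, 3.48, 2.08, 2.19 and 2.37 in D1 mice 6 to 10, and of 1.96, 2.20, 2.19, 2.13 and 1.34 in D3 mice 16 to 20, a difference of −0.67 ± 0.29 (SE). The groups overlapped, with D1 mice 6 and 7 above the rest. Stard4, a sterol carrier, had ratios of 2.44, 2.87, 2.23, 2.61 and 2.25 in D1 mice 6 to 10 and of 2.17, 2.49, 1.52, 1.83 and 1.77 in D3 mice 16 to 20, a difference of −0.53 ± 0.17 (SE), and a second probe gave −0.23. All D3 mice but mouse 17 lay below all D1 mice. Srebf2, the gene of SREBP2, had −0.20 and Sqle, squalene epoxidase, −0.37, both with a p above 0.05.

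Some single mice weighed on these counts. D1 mouse 7 was highest for Lss, Dhcr7, Insig1 and Stard4, and D3 mouse 20, a brighter array, was lowest for Lss, Dhcr7 and Insig1. Without D1 mouse 7, 4 of the 21 genes were lower at an unadjusted p under 0.05, without D3 mouse 20 it was 3, and without the 5 brighter arrays it was 5, where 2.25% of all genes were. Of all 55681 probes, 1317 were at this p in either direction without mouse 7 and 1245 without mouse 20. The share of all genes that were lower was not counted in those fits. The list median stayed between −0.38 and −0.23 in these and the other settings that leave out arrays. It was −0.15, −0.11 and −0.48 within slides 1, 2 and 3, and 7 of the 9 genes, which had been picked over these same mice, were lower within each slide. With arrays centred on their median in place of loess, which moved the median of all genes to 0.10, the list stood at −0.11 and 1 gene was lower at an unadjusted p under 0.05. Of all probes, 1463 were at this p in either direction under that centring. The part of array brightness in this difference was not tested beyond these values.

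**Figure D2:**
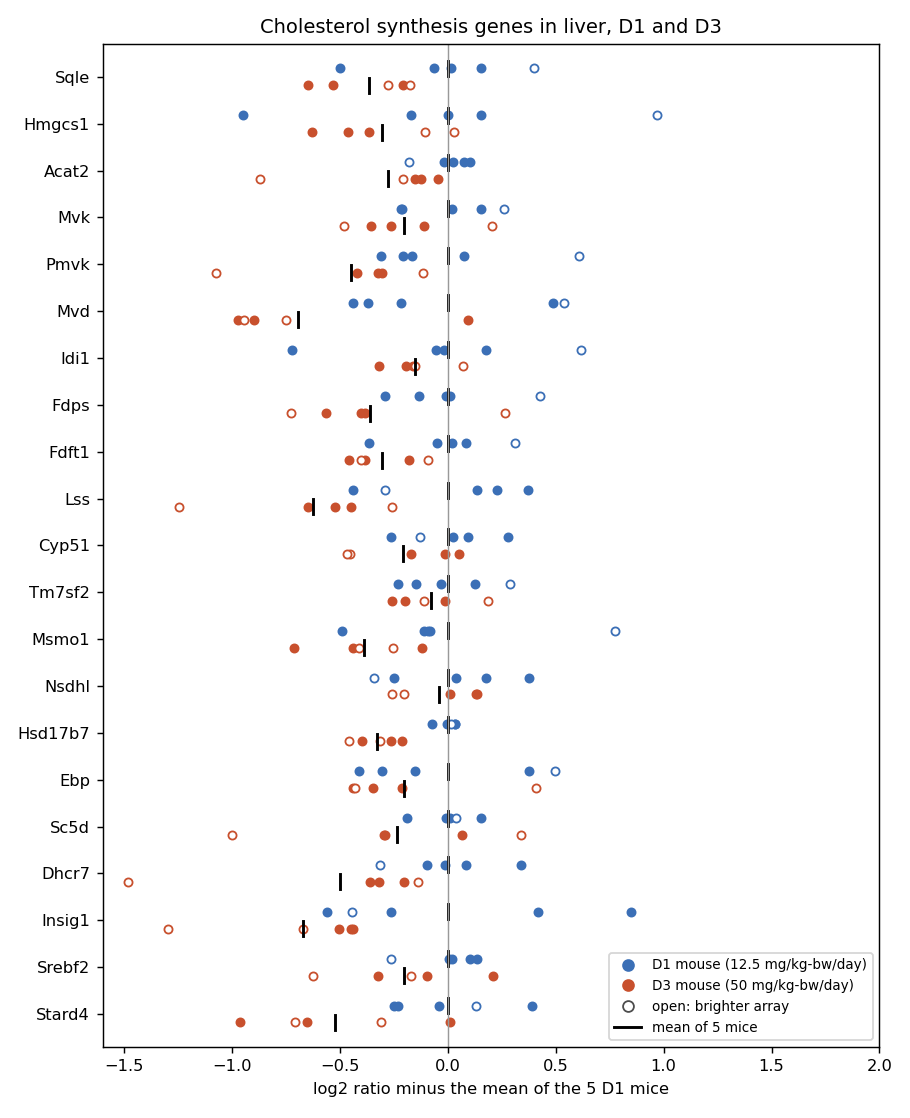
The 21 genes of cholesterol synthesis and its control. The x axis is the log2 Cy5/Cy3 ratio of a mouse minus the mean of the 5 D1 mice, points are mice, open points the brighter arrays and vertical bars the group means; the D3 mean lies left of the D1 mean for all 21 genes and most groups overlap.

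The bases just before the start of 3 of these genes are shown because SREBP2 and NF-Y act on such stretches. The 250 bases before each RefSeq start (GRCm38.p6, 32851 starts of 27025 genes) were searched on both strands for the CCAAT box (CCAAT), a sterol response element (TCACNCCAC), an E2F site (TTTCGCGC, TTTGGCGC, TTTCCCGC or TTTGCCGC) and the cell cycle CHR element (TTTGAA). Matches of different kinds overlapped in 46 of all stretches. For 17 of the 21 genes a start was listed (20 starts). A CCAAT box lay in 16 of the 20 (80.0%), against 33.8% of all starts, and the sterol element in 1 (that of Hmgcs1), against 1.1% of all. Sqle, Fdps, Fdft1 and Stard4 are not in the table. Below are the 150 bases before the start, 5′ to 3′ on the gene's strand, of Mvd (chr8:122443423-122443572, minus strand), Lss (chr10:76531455-76531604, plus strand) and Hmgcs1 (chr13:119690201-119690350, plus strand), with the CCAAT box on either strand and the sterol element in capitals.
Mvd: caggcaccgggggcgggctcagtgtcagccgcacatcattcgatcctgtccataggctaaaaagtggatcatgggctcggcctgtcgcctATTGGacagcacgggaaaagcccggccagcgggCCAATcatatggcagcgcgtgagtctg
Lss: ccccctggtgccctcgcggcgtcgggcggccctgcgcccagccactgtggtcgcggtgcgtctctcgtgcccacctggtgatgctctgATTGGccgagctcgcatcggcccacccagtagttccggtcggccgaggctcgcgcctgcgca
Hmgcs1: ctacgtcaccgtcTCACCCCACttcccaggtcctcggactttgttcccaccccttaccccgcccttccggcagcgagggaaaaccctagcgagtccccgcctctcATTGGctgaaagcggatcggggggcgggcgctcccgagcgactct
The CCAAT box nearest the start begins 27 bases before it in Mvd, 62 in Lss and 45 in Hmgcs1, whose sterol element begins 137 bases before the start. These matches describe the letters only.

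The genes of the cell cycle lay in the opposite direction. Of 30 measured genes, 7 were higher at D3 at an unadjusted p under 0.05 (Mcm6, Cdc20, Cdt1, Ccna2, Ccnb1, Mcm4 and Birc5), where 1.67% of all genes were, and 0 were lower. None passed both thresholds. The median difference was 0.11, with 21 means higher at D3 and 9 lower, and 23 of the 30 genes were above background in at least 4 mice of either group. 

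Ccna2, the cyclin of S phase and mitotic entry, had a log2 ratio of −4.95, −4.95, −5.12, −4.83 and −5.21 in D1 mice 6 to 10, and of −4.42, −4.39, −4.59, −4.46 and −4.94 in D3 mice 16 to 20. All D3 mice except mouse 20 lay above all D1 mice, and the difference was 0.45 ± 0.15 (SE). Mcm4, another helicase subunit, differed by 0.41 ± 0.13 (SE), with D3 mice from −4.01 to −3.14 and D1 mice from −4.12 to −3.64. Ccnb1, the mitotic cyclin, differed by 0.42 ± 0.16 (SE), and Birc5, survivin of the chromosomal passenger complex, by 0.40 ± 0.17 (SE), in both cases with groups that overlapped. The other probes of Ccnb1 gave 0.10 and 0.23, and those of Birc5 −0.13 and 0.00. Mki67, the proliferation antigen, had 0.48, with the brighter arrays of D1 mouse 9 (−4.39) and D3 mouse 16 (−4.06) above the rest of their groups. The other helicase subunits Mcm2 (0.15), Mcm3 (−0.07) and Mcm5 (−0.09) did not follow Mcm6 in size, and Top2a (−0.07), Plk1 (−0.05) and Cdk1 (0.04, near background) had differences within their SE.

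All 7 genes were higher at D3 within each slide, but they had been picked over these same mice. On slide 1 D3 was mouse 16 alone, a brighter array, and on slide 2 D1 was mouse 8 alone. The list median was 0.26, 0.15 and 0.09 within slides 1, 2 and 3 and 0.11 without the brighter arrays. The number of genes higher at an unadjusted p under 0.05 was 5 to 9 in the other settings. Over all 55681 probes, the count at this p in either direction ran from 1245 to 3971 there. The mean of the 30 genes relative to D1 was 0.18 ± 0.14 (SD, n = 5) in D3, 0.08 ± 0.10 (SD, n = 5) in D2 and 0.17 ± 0.16 (SD, n = 4) in the vehicle mice. Vehicle mouse 2 (−0.06) and D3 mouse 20 (−0.05) lay within the range of the D1 mice (−0.07 to 0.07), and the other vehicle and D3 mice lay above it. Only 13 of the 30 genes had a D3 mean above the vehicle mean. Mcm6, Cdc20 and Cdt1 were among the genes whose D3 mean exceeded that of the vehicle mice as well.

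**Figure D3:**
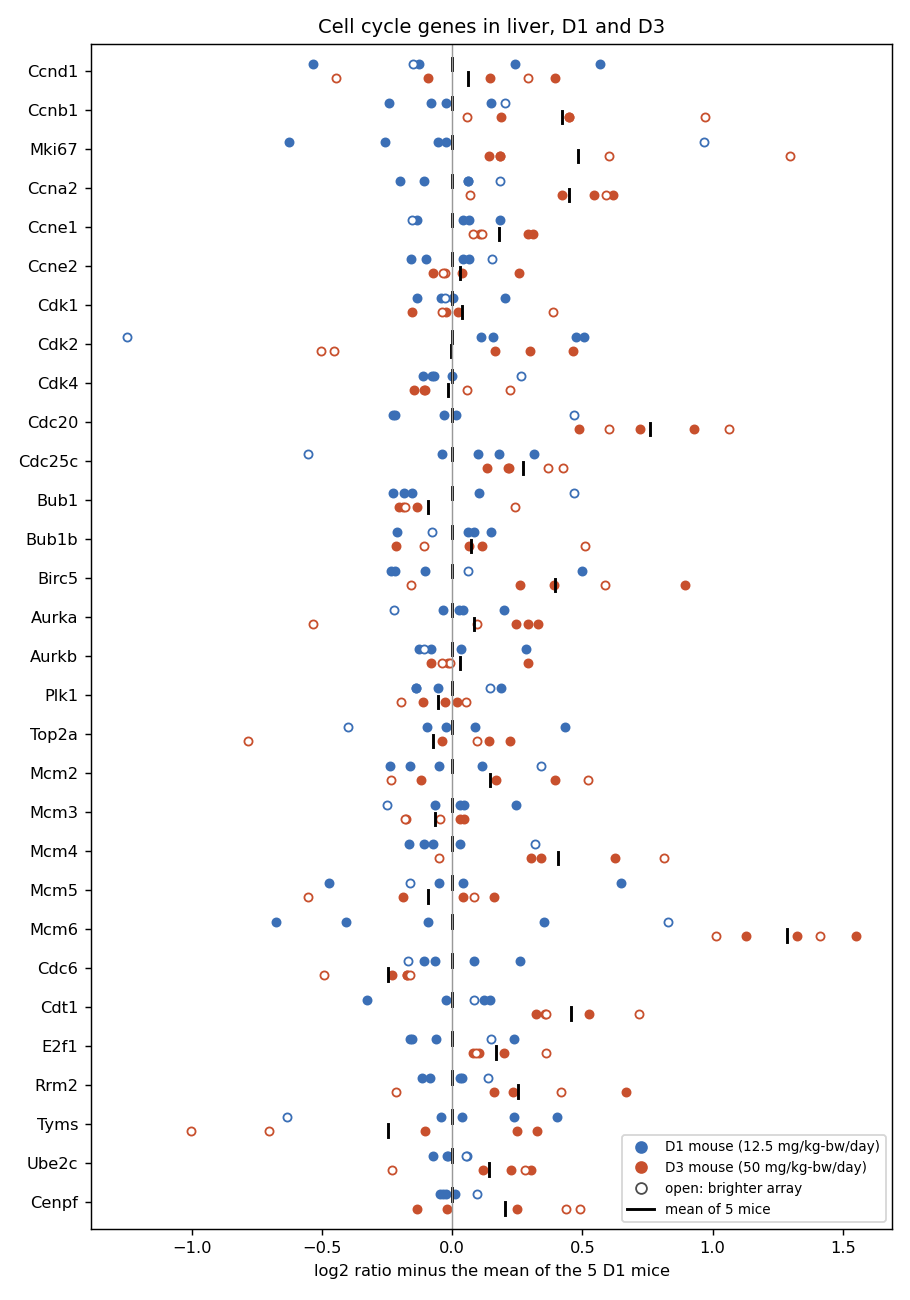
The 30 cell cycle genes. The x axis is the log2 Cy5/Cy3 ratio of a mouse minus the mean of the 5 D1 mice, points are mice, open points the brighter arrays and vertical bars the group means; Mcm6, Cdc20 and Cdt1 are the genes whose D3 mice all lie right of all D1 mice, while most other genes overlap.

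For 24 of the 30 genes a start was listed in the same RefSeq table (all but Aurkb, Ccna2, Ccnd1, Ccne2, Cdc25c and Mcm4). A CCAAT box lay before 17 of the 24 starts (70.8%), an E2F site before 5 (20.8%, against 1.9% of all starts) and a CHR element before 6 (25.0%, against 16.0%). The 150 bases before the start of the 2 genes with the largest differences, Mcm6 (chr1:128359706-128359855, minus strand) and Cdc20 (chr4:118437344-118437493, minus strand), are shown with these motifs in capitals.
Mcm6: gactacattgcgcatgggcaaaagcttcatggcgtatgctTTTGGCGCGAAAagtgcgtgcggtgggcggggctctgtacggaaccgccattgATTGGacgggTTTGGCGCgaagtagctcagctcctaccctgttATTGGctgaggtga
Cdc20: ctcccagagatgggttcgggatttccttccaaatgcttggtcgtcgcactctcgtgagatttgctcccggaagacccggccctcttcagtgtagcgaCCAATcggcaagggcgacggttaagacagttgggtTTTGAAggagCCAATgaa
The first run of capitals in Mcm6 holds E2F letters on both strands that overlap, a second E2F site begins 47 bases before the start, and its CCAAT boxes begin 57 and 14 bases before it. In Cdc20 the CHR element begins 18 bases before the start and lies between CCAAT boxes that begin 53 and 8 bases before it. The 5 cell cycle genes with an E2F site had a median difference of −0.01, and the 19 without one 0.15.

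Both lists can be set against the other dose groups. The mean of the cholesterol genes relative to D1 was −0.02 ± 0.27 (SD, n = 4) in the vehicle mice, −0.23 ± 0.20 (SD, n = 5) in D2 and −0.34 ± 0.20 (SD, n = 5) in D3. D3 mice ranged from −0.64 to −0.13 and D1 mice from −0.20 to 0.19, and 1 vehicle mouse, at −0.43, lay within the range of D3. The D3 mean was below the vehicle mean for 20 of the 21 genes, the D2 mean for 17 and the D1 mean for 11. For the cell cycle genes the D1 mean was below the vehicle mean for 27 of 30, since only 3 were above it.

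**Figure D4:**
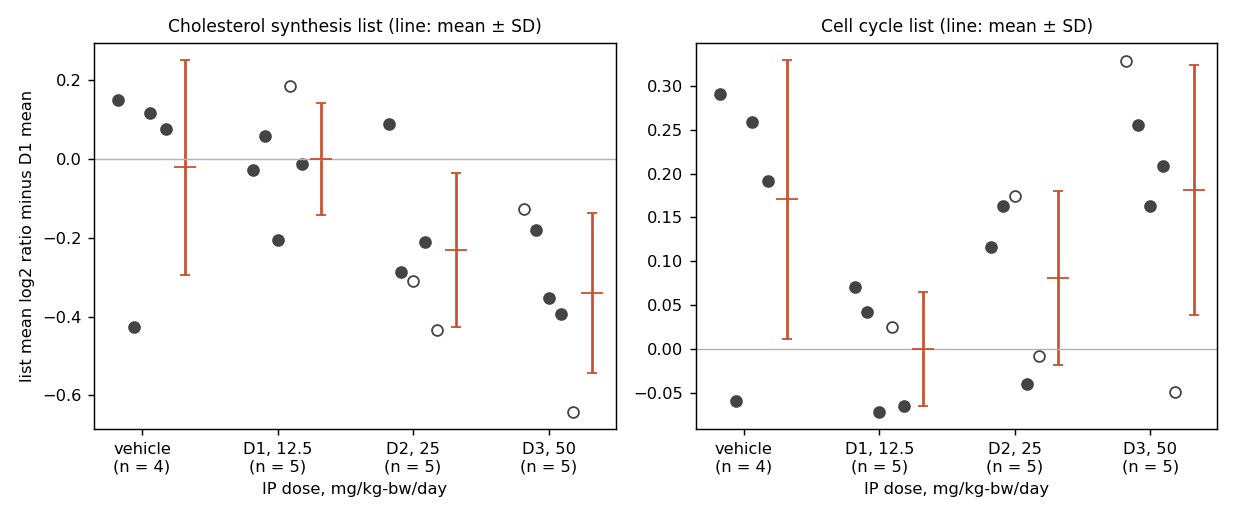
Mean log2 ratio over the 21 cholesterol genes (left) and the 30 cell cycle genes (right) in each liver, minus the mean of D1, by dose. Points are mice, open points the brighter arrays, and the line with a bar is the mean ± SD. The cholesterol mean is lower in D2 and D3 than in D1, and mice of both overlap the range of D1. The cell cycle mean is lowest in D1, 0.18 in D3 and 0.17 in the vehicle mice, with 1 mouse of each within the range of D1.

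Lists of abundant hepatocyte transcripts had medians below that of all genes, and several held more members that were lower at an unadjusted p under 0.05 than the 1.56% of all genes: 25.0% of the periportal genes, 16.0% of acute phase, 15.4% of urea cycle and 13.6% of gluconeogenesis genes. None passed both thresholds. Periportal genes, which mark the zone around the portal vein, had a median of −0.43, with all 16 means lower at D3 and 4 at an unadjusted p under 0.05 (Hal, Pck1, Asl and Aspg). Hal and Asl also count in the urea cycle list and Pck1 in the gluconeogenesis list, so the shares of these lists are not separate. Pck1, the enzyme that commits carbon to glucose, had a log2 ratio of 9.38, 9.36, 9.29, 7.96 and 9.04 in D1 mice 6 to 10, and of 7.41, 8.94, 8.34, 8.74 and 7.74 in D3 mice 16 to 20. The lowest value of each group came from a brighter array (mice 9 and 16), so the groups overlapped, and the difference of −0.77 ± 0.32 (SE) was −0.59 without the brighter arrays. Urea cycle and amino acid breakdown had a median of −0.35, with Cps1, Asl, Hal and Cth lower and Oat higher among 26 genes. Cps1, the first enzyme of the urea cycle, had −0.56 ± 0.26 (SE). Oat, which breaks down ornithine in the cells around the central vein, was higher by 0.66 ± 0.22 (SE), at 2.49, 2.68, 2.34, 2.41 and 1.63 in D1 mice 6 to 10 and 3.23, 2.44, 3.23, 2.93 and 3.03 in D3 mice 16 to 20. All D3 mice but mouse 17 lay above all D1 mice.

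Pericentral genes as a list had a median of 0.09, with Oat and Tbx3, a repressor downstream of Wnt, higher among 16. At an unadjusted p under 0.05, the limit for genes named here, 1.67% of all genes were higher and 1.56% lower. Acute phase proteins had a median of −0.31 with Saa2, Apcs, Itih3 and Itih4 lower among 25, hepatocyte secreted proteins −0.31 with none of 20 in either direction, and complement and coagulation −0.28 with F7 lower among 26. Fatty acid and triglyceride synthesis had −0.26 with Fasn, Acss2 and Mid1ip1 lower among 24, where Fasn, fatty acid synthase, had −0.76 ± 0.32 (SE). Gluconeogenesis and glucose use had −0.22 with Pck1, Ppp1r3b and Tat lower among 22, transporters −0.25 with Abcg2 higher among 19, and the CYP2, CYP3 and CYP4 enzymes −0.19 with none of 32 in either direction. The slides did not bear these medians out evenly. On slide 1 they were as low as −0.87 (periportal) and −0.57 (both urea cycle and acute phase), whereas on slide 2 the urea cycle stood at 0.02, acute phase at −0.03 and complement at 0.00. D3 against D1 on slide 1 is mouse 16, a brighter array, against 2 darker ones. The part of brightness in these lists was not tested, and without the brighter arrays the medians were −0.39 for periportal genes, −0.28 for the urea cycle and −0.31 for acute phase proteins.

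**Figure D5:**
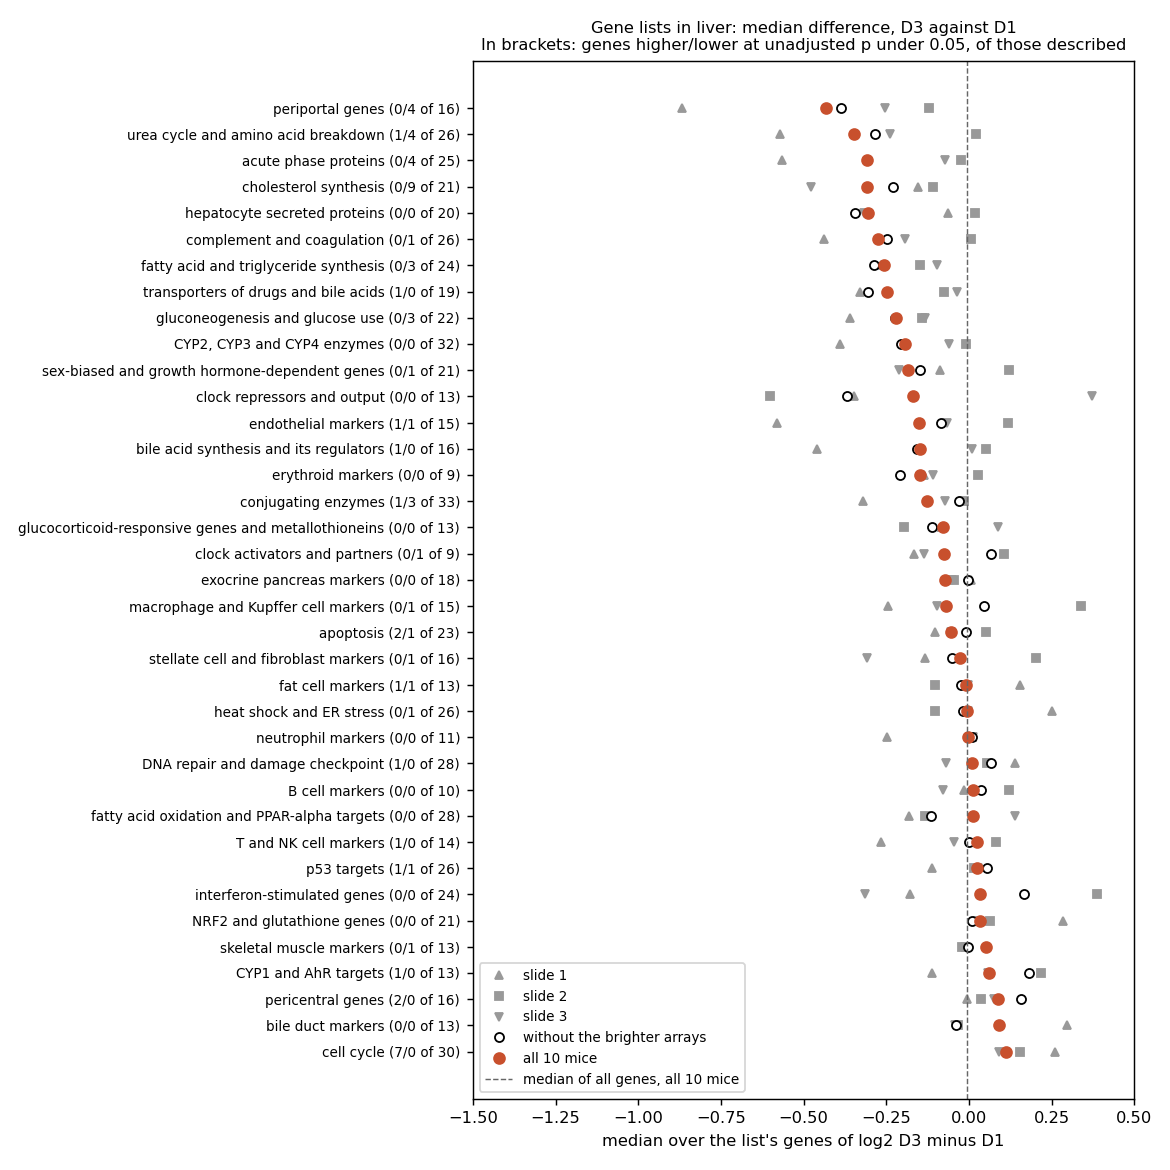
Median difference, D3 minus D1, over the genes of each of the 37 lists, with the number of genes higher/lower at an unadjusted p under 0.05 in brackets. Filled circles are all 10 mice, grey signs the differences within slides 1, 2 and 3, open circles the mice without the brighter arrays and the dashed line the median of all genes; cholesterol synthesis holds the largest count (0/9 of 21) and cell cycle the largest count of higher genes (7/0 of 30).

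None of the genes through which IP is known to act passed both thresholds between the doses. Cyp1a1, the classic AhR target, was not above background in any D1 mouse and was above it in 3 of the 5 D3 mice. Its log2 ratio was 0.12, −0.32, −0.14, 0.05 and −0.14 in D1 mice 6 to 10, and 0.20, −0.19, 1.51, −0.07 and 0.55 in D3 mice 16 to 20. Mice 16, 18 and 20 lay above all D1 mice, mouse 18 furthest, and mice 17 and 19 within their range. Of these, mice 16 and 20 were on brighter arrays. Vehicle mice ranged from −0.32 to 0.14 and D2 mice from −0.14 to 0.17. The difference was 0.48 ± 0.22 (SE), between ratios of a dim transcript from which no background was subtracted. Cyp1b1, its extrahepatic relative, had 0.33 ± 0.17 (SE), again with D3 mouse 18 highest at −1.99 against −2.57 for the next. Cyp1a2, abundant in every liver, had −0.12 ± 0.23 (SE). Of the 13 genes described of the AhR list, Cyp1a1 was higher and none lower at an unadjusted p under 0.05, and the median was 0.06. Over all genes, 1.67% were higher and 1.56% lower at this p.

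Of 26 p53 targets, Mdm2, the p53 ubiquitin ligase, was higher by 0.21 ± 0.08 (SE) and Bbc3, which encodes the pro-apoptotic protein PUMA, lower by a difference of −0.50 ± 0.17 (SE). The Bbc3 ratio was 0.31, 0.84, 0.32, 0.33 and 0.59 in D1 mice 6 to 10, and 0.28, −0.17, 0.26, −0.22 and −0.29 in D3 mice 16 to 20, so that the groups did not overlap but nearly met, at 0.31 and 0.28. Cdkn1a, p21, had 0.17 ± 0.30 (SE) and Ccng1 0.15 ± 0.12 (SE). The median of the list was 0.02. Genes named as higher or lower here are those at an unadjusted p under 0.05, where 1.67% of all genes were higher and 1.56% lower. No list in this paragraph is read as changed. DNA repair genes had a median of 0.01 with Atr higher among 28, the NRF2 and glutathione genes 0.03 with none of 21 in either direction, conjugating enzymes −0.13 with Gstm2 higher and Sult1a1, Gsta3 and Sult2a8 lower among 33, and the targets of PPAR-alpha 0.01 with none of 28. Apoptosis genes had −0.06, with Casp8 and Tnfrsf1a higher and Cflar lower among 23. In bile acid synthesis Amacr was higher among 16 genes, and Cyp7a1, the rate-limiting enzyme, had 0.18 ± 0.70 (SE), since the mice of both groups were far apart (SD 1.39 and 1.52). Clock repressors had a median of −0.17 with none of 13 in either direction, clock activators −0.07 with Rora lower among 9, sex-biased genes −0.18 with Fmo2 lower among 21, heat shock and endoplasmic reticulum stress −0.01 with Hspa1a lower among 26, interferon-stimulated genes 0.03 with none of 24, and glucocorticoid-responsive genes −0.08 with none of 13.

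Markers of other cells were examined, since in a bulk sample fewer cells of a type and less RNA per cell cannot be told apart. Of 11 lists, none had more than 1 member in either direction at an unadjusted p under 0.05. Over all genes the shares were 1.67% higher and 1.56% lower. Macrophage and Kupffer cell markers had 0 higher and 1 lower (Itgam) of 15 with 13 above background in both groups, endothelial markers 1 higher (Vwf) and 1 lower (Kdr) of 15, T and NK cell markers 1 higher (Cd8a) of 14, and B cell markers 0 of 10. Stellate cell markers had Lum lower among 16, fat cell markers Ucp1 higher and Car3 lower among 13, skeletal muscle markers Atp2a1 lower among 13, and erythroid, neutrophil, bile duct and exocrine pancreas markers had none. The summed Cy5 signal of the B cell markers was 3407 to 3966 units in D1 and 3238 to 3933 units in D3, and that of the 6 hepatocyte markers 717707 to 978307 and 707638 to 958039 units. Such a sum is weighted towards the brightest transcripts. Of the 6 hepatocyte markers, 0 were higher and 2 lower (Cps1 and Tat) at an unadjusted p under 0.05. Exocrine pancreas markers had 5 of 18 above background in both groups with Cpb1 and Try4 in no mouse, skeletal muscle markers 3 of 13 with Mb in none, neutrophil markers lacked Ltf and Mmp9, and fat cell markers lacked Lep.

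The same contrast was made in lung and forestomach of the same mice. No probe had a D3 minus D1 difference that differed between liver and lung (limma, adjusted p of 0.05 with no limit on the size, 0 of 55681, 0%; 1371 at an unadjusted p under 0.05) or between liver and forestomach (0%; 2299 at an unadjusted p under 0.05), with smallest adjusted p values of 0.274 and 0.724. For the cholesterol genes the difference was lower in liver than in lung for 8 of the 21 at an unadjusted p under 0.05, where 1.24% of all genes were, and lower than in forestomach for 14 of the 21, where 3.53% were, with 0 in the other direction in both cases (0.859 and 1.27% of all genes). The list was taken up with its liver values known. Those values are part of the comparison, so these counts are no separate support. The cholesterol medians were 0.05 in lung and 0.16 in forestomach, where 4 and 3 genes were higher at D3 at an unadjusted p under 0.05 (2.56 and 3.93% of all genes). Other lists also differed from forestomach, with 11 of the 24 genes of fatty acid synthesis and 8 of the 22 of gluconeogenesis lower in liver, against 5 and 1 in the comparison with lung. In forestomach itself the D3 minus D1 median was 0.42 for fatty acid synthesis, 0.87 for fat cell markers (2 of 13 higher at an unadjusted p under 0.05) and 0.55 for skeletal muscle markers (1 of 13), and the part of these cells in the comparison was not tested. Stard4 had the smallest p for lung, with −0.53 in liver against 0.12 in lung, a difference between the tissues of −0.65 ± 0.21 (SE). With forestomach, Lss had the smallest p, with −0.63 in liver against 0.37, a difference of −0.997 ± 0.27 (SE).

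For the cell cycle genes, 16 of the 30 were higher at D3 in lung at an unadjusted p under 0.05, where 2.56% of all genes were. Their median difference was 0.30. Mcm6 was higher by 1.07 ± 0.24 (SE) in lung and by 0.65 in forestomach, and Cdc20 by 0.67 in lung and 0.10 in forestomach. The difference of Mcm6 between liver and lung was 0.22 ± 0.37 (SE), within its error. Birc5 differed by 1.01 in lung and by 0.40 in liver. Pigt, Csad and Pde5a had small values in lung (0.06, 0.04 and 0.11), with differences between liver and lung of 1.08 ± 0.31, −1.23 ± 0.34 and −1.65 ± 0.42 (SE), none of which passed adjustment over all probes. Since these genes were picked by their liver values, which are part of the differences, the differences are no separate support. Of the 15 higher genes 13 had the same sign in lung and 9 in forestomach, and of the 15 lower genes 10 and 8. The share of all genes with the same sign was not counted, so no agreement is read from these. At an unadjusted p under 0.05, 2 of the higher and 8 of the lower genes differed from lung, and 9 of each from forestomach. The liver differences by which they were ranked are part of those comparisons. These counts are over the same mice in all 3 tissues.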

How the data were processed

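RNA of the left liver lobe was measured in 19 mice on 2-colour Agilent arrays, of which the 5 of D3 and the 5 of D1 form the contrast; 58 arrays of 3 tissues entered the comparisons between tissues. Spot intensities were taken by the authors with Agilent's Feature Extraction (11.0.1.1 for liver, 10.7.3.1 for the other tissues, per the file headers), and the median intensity of each channel was used without background subtraction, as the study did. The scanner software's log10 ratio of Cy5 over Cy3, deposited in the same files and background-subtracted and dye-normalized, served as an alternative. The normalized log2 ratios that the authors deposited for liver were not used, since their probe names are displaced.

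Log2(Cy5/Cy3) of non-control spots underwent loess in every array. Outlier spots were dropped and replicate spots averaged. The 19 liver arrays were fitted in 1 limma model of 4 groups in place of MAANOVA (R 4.3.3, limma 3.58.1, statmod 1.5.0, package data.table in version 1.17.8), two-sided, with Benjamini-Hochberg adjustment over 55681 probes. Calls needed 1.5-fold and an adjusted p no higher than 0.05. Tissues were compared in a joint limma fit of 12 groups. Gene names came from the probes' accessions through RefSeq (26413 probes, 20018 names). Single genes were also tested by exact permutation over 252 splits. The test was checked on simulated log ratios whose noise was drawn independently for each probe and array. That check holds nothing like the brighter arrays and cannot speak to them.

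The members, the 37 lists, the tests and the alternatives were chosen with earlier results of these data known. Named genes are the 15 higher and 15 lower with the smallest unadjusted limma p (under 0.05) whose Cy5 signal was well above background in at least 4 of 5 mice of the higher group, since none passed the thresholds. From each list the first 3 genes and those with the largest increase, the largest decrease or the smallest p could also be named, of which a selection is printed. The cholesterol and cell cycle lists were taken gene by gene, and other list members at an unadjusted p under 0.05 were named, after their values were seen. Some members of 3 lists are not reported here and enter no list count. Alternatives were normexp background correction (offset 50), median-centring, Cy5 alone, the software's ratio, keeping outlier spots, dropping dim probes, slide blocks, the 10 arrays by themselves, eBayes with trend and robust, array weights, other thresholds and each mouse left out. Leaving out the brighter arrays (Cy5 well above background for over 60% of probes) or taking them as a block was added after seeing the data. Mouse numbers name the same mouse in different tissues, so mouse was also taken as a block there; D1 and D3 share no mouse. The number of arrays limits the precision.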

Additional observations from a re-analysis of the deposited data

Results flagged for a closer look

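In 192 groups of 5 mice (94 genes and the 2 list means, in D1 and in D3), 18 had a mouse whose gap to its neighbour exceeded 0.71 of the range, where about 1 group in 20 would by chance. D3 mouse 20 was that mouse in 7 of them, and 13 of the 18 were on brighter arrays. Mouse 20 was lowest for Acat2 (2.40, the next mouse at 3.06), Dhcr7 (1.59, next 2.71), Insig1 (1.34, next 1.96), Hal (5.22, next 6.24), Aurka (−4.37), Cdc6 (−1.02) and Top2a (−5.00). D1 mouse 7 was highest for Mid1ip1 (2.33, next 0.90). D1 mouse 9 was lowest for Cdk2 (−2.44) and Pck1 (7.96, next 9.04) and highest for Csf2rb (−0.73). D3 mouse 16 was highest for Bub1 (−3.01), Ebp (4.61) and Gpr146 (3.23, next 2.88). The remaining ones were D1 mouse 8 for Ccng1 (highest, −1.43), D3 mouse 17 for Mvd (highest, 1.00), D3 mouse 18 for Cyp1b1 (highest, −1.99) and D3 mouse 19 for Aurkb (highest, 0.31). Among the cholesterol genes, 3 of these values lie towards a lower D3 and 2 (Ebp and Mvd) the other way. No probe had a D3 minus D1 difference that differed between liver and another tissue after adjustment.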

How the results depend on the processing

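The count of called probes was 0 in 22 of 26 alternatives. It was 3 with array weights, 1 without the brighter arrays, 0 to 1 when each mouse was left out (1 without D1 mouse 9) and 864 at an unadjusted p under 0.05 with 1.2-fold; probes at an unadjusted p under 0.05 ran from 741 (dim probes left out) to 3971 (without D1 mouse 9), against 1644. Differences between liver and lung stayed at 0 under median-centring, slide, outlier spots kept and mouse as a replicate block (0, with 1576 at an unadjusted p under 0.05), were 0 to 2 when each array was left out (2 without D3 mouse 17 of lung) and 1203 at an unadjusted p under 0.05 with 1.2-fold. For forestomach they were 0 with the replicate block (2563 at an unadjusted p under 0.05), 0 to 2 with each array left out (2 without D1 mouse 6 and 1 without D3 mouse 17 of forestomach) and 2107 at the lower thresholds. The consensus correlation of tissues of a mouse was 0.0458. Of the genes at an unadjusted p under 0.05, Atp2a1 and Itgam turned sign under median-centring (0.025 and 0.00105), which moved the median of all genes to 0.10. The cholesterol median kept its sign in 22 of 22 settings (−0.38 to −0.11) with 1 to 12 genes lower, and the cell cycle median in 22 of 22 (0.09 to 0.33) with 5 to 9 higher. In these settings 1245 (without D3 mouse 20) to 3971 (without D1 mouse 9) of all probes were at an unadjusted p under 0.05 in either direction. The share of all genes in each direction was not counted for every setting, so nothing is read from the highest list counts. Over lists and settings, 20 medians moved by more than the spread between mice and 794 did not. The causes were not tested. Dim transcripts such as Cyp1a1 are limited by signal over background, and 5 mice a group limit the rest.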
